A study of Homo sapiens with 6 samples.

Results

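The aryl hydrocarbon receptor pathway was followed through 8 genes chosen by symbol, of 26364 genes per the authors' deposited table. They are the receptor gene AHR, its partner gene ARNT, its repressor gene AHRR, and the target genes CYP1A1, CYP1A2, CYP1B1, TIPARP and NQO1. CYP1A1 was picked because it showed the largest rise in this same comparison, and the other members were added for their place in the pathway. The fold changes below are therefore a description of the set, and no test is given for CYP1A1.

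The RNA came from REH, an established human line that grew from an acute lymphoblastic leukaemia of B-cell precursors. In 3 of the 6 libraries the cells had been transduced by lentivirus with a scramble control hairpin, and in the other 3 with a hairpin against STAT3, called shSTAT3. All 6 cultures went through puromycin selection for 3 days and dead cell removal, and the replicates came from 3 independent experiments. The labels do not say how many STAT3 hairpins were used and mention no rescue, so an effect of the hairpin beyond STAT3 cannot be told apart from the loss of STAT3.

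AHR is a ligand-activated transcription factor of the bHLH-PAS family that waits in the cytoplasm bound to HSP90 and co-chaperones. Aromatic pollutants, plant compounds and tryptophan metabolites bind it, after which it enters the nucleus, pairs with ARNT and binds DNA elements with a GCGTG core. CYP1A1, CYP1B1, TIPARP and AHRR are its classical targets in many cell types, and AHRR and TIPARP limit the receptor in turn.

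The deposited table holds 1 mean, 1 fold change and 1 p per gene and no value per library, so the spread between replicates is known only through the authors' p. A mean is the read count after scaling for depth, averaged over all 6 libraries, and the standard error given beside a fold change was computed from the fold change and its p. A gene is called tested where the authors' deposited table gives an adjusted p, which holds for 12061 genes with a mean of at least 10.0, and called higher or lower where that adjusted p from DESeq2 is under 0.05. The STAT3 transcript was at 29.8% of scramble per the authors' deposited table, and the direction of every fold change was set from it. Among 13 markers of B-cell precursors, 12 had a mean of at least 10.0, up to 20516 for RAG1, and VPREB1 was at 0 per the authors' deposited table. T-cell and hepatocyte markers reached no more than 0.516 and 6.90, while 5 of 8 myeloid markers and 2 of 8 fibroblast and epithelial markers reached a mean of 10.0, up to 2330 for MPO and 806 for PDGFRB per the authors' deposited table. Of the tested markers 2 of 12 B-cell precursor markers were higher and 6 lower, and 1 of 4 myeloid markers was higher and 2 lower. Both tested markers of the fibroblast and epithelial set were lower. Their part in the results below was not tested. The reads behind the lowest means could be assigned to 6 libraries that carry no label, numbered here from the deepest to the shallowest. Library 1 stood apart, with 27.5% of the 14528 reads of genes with a mean under 2, against 12.7% to 16.2% in the others. By the fold-change sign of genes with reads in few libraries, libraries 1, 3 and 4 are scramble. The others are shSTAT3.

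The set was uneven in what the cells transcribed. Of the members 5 were tested (CYP1A1, ARNT, AHRR, TIPARP and NQO1), 2 had too few reads for an adjusted p (AHR and CYP1B1), and CYP1A2 was at 0, per the authors' deposited table. CYP1A1, picked for its rise, stood at 7.69-fold in shSTAT3 over scramble per the authors' deposited table. NQO1 rose 1.77-fold, ARNT fell to 81.8% of scramble, and TIPARP and AHRR were not called per the authors' deposited table. Leaving out CYP1A1, 1 of 4 tested members rose and 1 fell. Over all tested genes 44.5% were called, 21.3% higher and 23.2% lower, so the share among these members lay near that of any genes. Their median log2 fold change was −0.19, against 0.0027 for all tested genes.

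**Figure D1:**
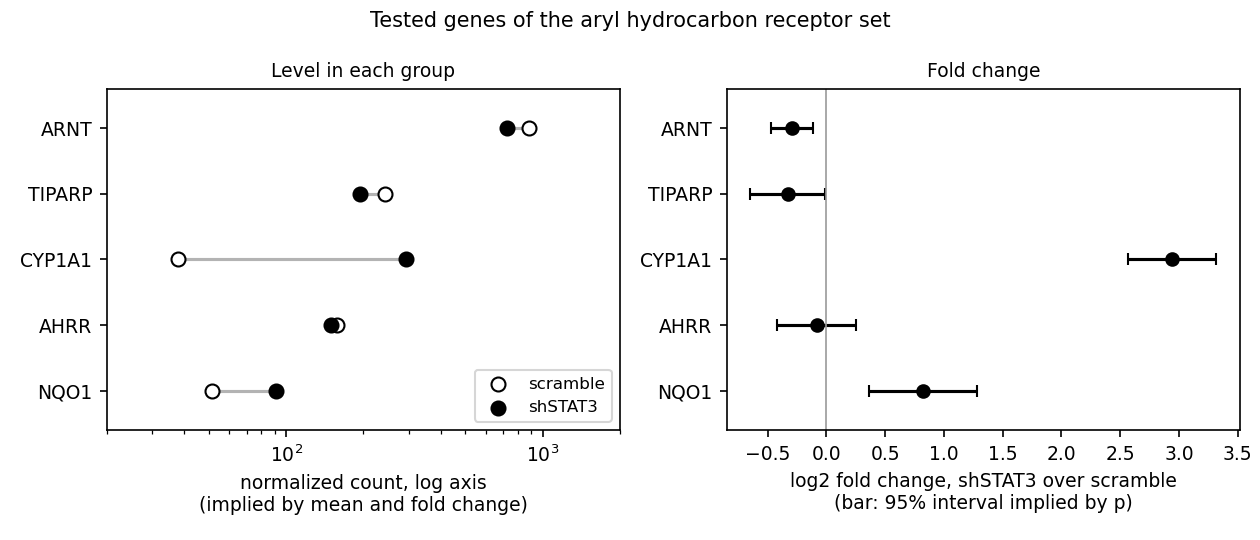
Left, normalized count in scramble (open circles) and shSTAT3 (filled circles) implied by the deposited mean and fold change, on a log axis; right, log2 fold change with its 95% interval. CYP1A1 goes from 38.0 to 292 and NQO1 from 51.4 to 90.8, while AHRR keeps an interval on both sides of 0.

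CYP1A1 encodes the cytochrome P450 that oxidises polycyclic aromatic hydrocarbons, and its transcription is the usual readout of active AHR. In GENCODE 29 on GRCh38 it spans bases 74719542 to 74725610 of chromosome 15, minus strand. Its mean was 165 normalized counts per the authors' deposited table, about 989 over the 6 libraries. How these are spread over the libraries is not known from the table. With that mean and a log2 fold change of 2.94 ± 0.19 (SE), the level would be 38.0 in scramble and 292 in shSTAT3. CYP1A1 was picked as the largest rise, so its rank of 1 by fold among the 12061 tested genes was fixed in advance. The next 2, LOC101927501 and KCNJ2-AS1, stood at 2.47 and 2.43 in log2 units per the authors' deposited table. In bulk RNA, a change in how many cells transcribe a gene and a change in its RNA per cell cannot be told apart. Despite its rank CYP1A1 was not an abundant transcript, with a mean above that of 27.9% of tested genes.

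**Figure D2:**
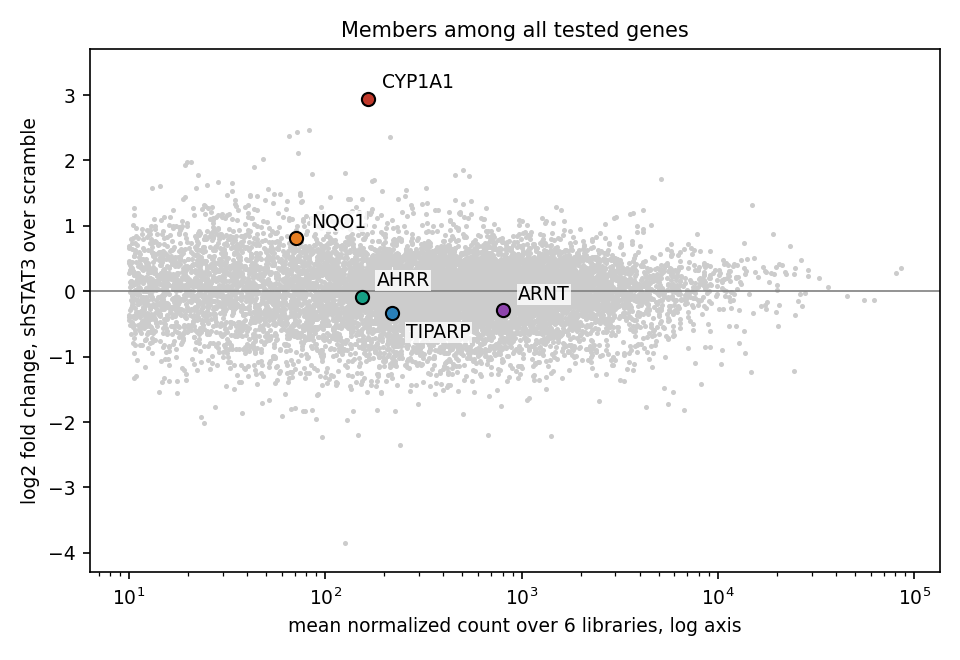
Log2 fold change against mean normalized count (log axis) for all 12061 tested genes in grey, with the 5 tested members in colour. CYP1A1, chosen as the largest rise, is at 2.94, and the other members lie between −0.33 and 0.82.

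AHR, the receptor gene itself, was all but absent. It lies on chromosome 7 from 16916359 to 17346152 and had a mean of 0.147 per the authors' deposited table, which is exactly 1 read over the 6 libraries, found in library 1. At 989 normalized counts for CYP1A1 and 1 read for AHR, the target was transcribed where the receptor's transcript was at the limit of detection. A log2 fold change from 1 read carries no information about a change in AHR. Only its sign was used, to place library 1 in scramble. GENCODE 29 has another gene model over AHR on the same strand that is not among the table's names, and whether reads were set aside as shared is not known from the table. The receptor's protein was not measured.

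The 2 closest relatives of CYP1A1 were at or near 0. CYP1A2, which lies 23234 bases from it in the opposite orientation and is best known from liver, had no read in any library. A count of 0 allows up to 3 reads over all 6 libraries, a mean of 0.50, for counting error only. CYP1B1, the P450 that hydroxylates oestradiol and is an AHR target in many tissues, had 13 reads. Of these, 12 fell in library 1, 1 in library 4 and none in the others. CYP1B1 had a log2 fold change of −0.39 ± 0.22 (SE), an unadjusted p of 0.0751 and no adjusted value per the authors' deposited table, so it was not called either way. Since 92.3% of its reads came from 1 library, that value rests on it, and it could not be computed without it. Libraries 1 and 4 are both scramble, so shSTAT3 had no read of CYP1B1. CYP2S1, another P450 reported to respond to AHR, had 9 reads, all in library 1, and a log2 fold change of −0.26 per the authors' deposited table. CYP1B1-AS1, antisense to CYP1B1, was at 0 per the authors' deposited table. The 2 genes overlap, and whether reads were counted by strand or set aside as shared is not known.

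**Figure D3:**
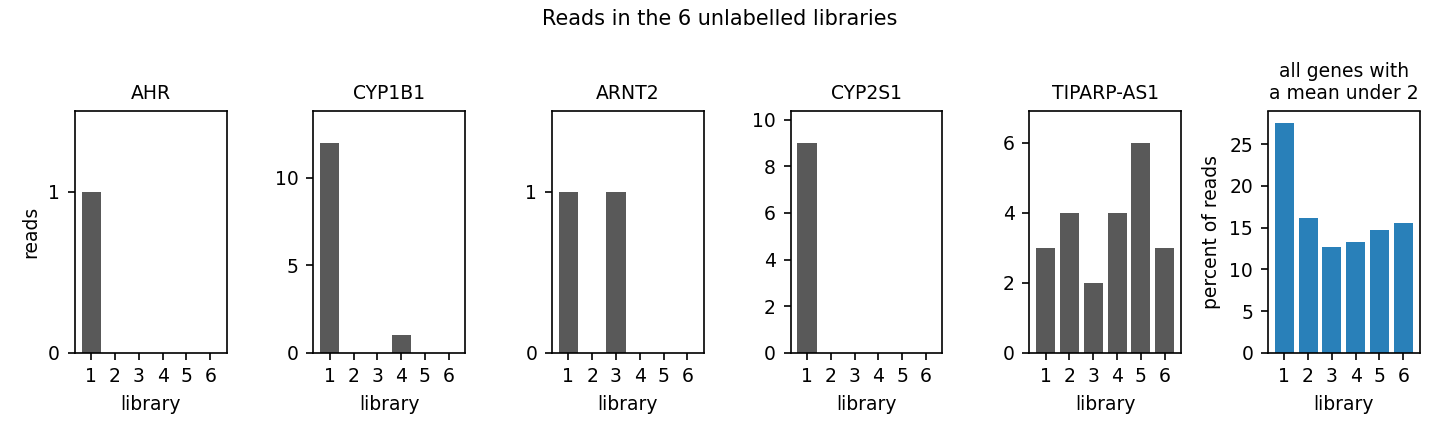
Whole reads in each of the 6 unlabelled libraries for 5 genes of low mean, and, in blue, the percent of reads of all genes with a mean under 2. AHR has 1 read and CYP1B1 12 of its 13 reads in library 1, whereas the 22 reads of TIPARP-AS1 are spread over all 6.

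Neither feedback gene of the pathway was called higher. AHRR, which competes with AHR for ARNT and represses its targets, averaged 154 normalized counts, with a log2 fold change of −0.08 ± 0.17 (SE, DESeq2 adjusted p = 0.728) per the authors' deposited table. Its 95% interval runs from −0.42 to 0.25, so a rise of more than 1.19-fold lies outside it. AHRR lies on chromosome 5 from 304176 to 438291 and overlaps PDCD6 on the same strand over 49681 bases of GENCODE 29. PDCD6, a calcium-binding protein gene, averaged 690, with a log2 fold change of 0.13 (DESeq2 adjusted p = 0.265) per the authors' deposited table, and reads shared by the pair cannot be told apart. TIPARP, the mono-ADP-ribosyltransferase that modifies AHR and shortens its action, averaged 218, with a log2 fold change of −0.33 ± 0.16 (SE) per the authors' deposited table. It passed without adjustment (p = 0.0440) and not with it (DESeq2 adjusted p = 0.0893) per the authors' deposited table, and its direction was downward. TIPARP-AS1 overlaps the start of TIPARP on the other strand over 1144 bases and had only 22 reads. Since counting by strand is not stated, reads over these bases cannot be told apart between the pair.

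ARNT is the common partner of AHR and of the hypoxia factors HIF1A and EPAS1. It was the most abundant member, with a mean of 807 per the authors' deposited table. It fell by 0.29 ± 0.09 (SE) in log2 units per the authors' deposited table (DESeq2 adjusted p = 0.00483), to an implied 727 from 888. Per kilobase of exon its mean over both groups was 124, against 48.0 for CYP1A1, 43.2 for TIPARP, 21.9 for NQO1 and 20.02 for AHRR. TIPARP and CYP1A1, and likewise NQO1 and AHRR, lay close together in this mean, but not within each group. The implied counts were 38.0 in scramble and 292 in shSTAT3 for CYP1A1, and 243 and 193 for TIPARP. CTSK, a cathepsin gene that starts 1382 bases past the end of ARNT on the same strand, went the other way, with a rise of 1.37 in log2 units per the authors' deposited table (DESeq2 adjusted p = 6.76e-07).

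NQO1, the quinone reductase induced through both AHR and NRF2, rose by 0.82 ± 0.23 (SE) in log2 units per the authors' deposited table (DESeq2 adjusted p = 0.00155). Its mean of 71.1 per the authors' deposited table makes it the lowest of the tested members, with an implied 51.4 in scramble and 90.8 in shSTAT3. By fold it ranked 371 among the tested genes. NFAT5, a transcription factor gene 2330 bases away on the other strand, rose by 1.12 in log2 units per the authors' deposited table (DESeq2 adjusted p = 6.64e-19). The 2 genes point toward each other's ends, and whether reads were counted by strand is not given in the sources used here, so transcription past the end of NFAT5 cannot be told apart from NQO1.

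The 250 bases upstream of the RefSeq start site (GRCh38.p14) are shown for CYP1A1 and NQO1, the members that stood higher in shSTAT3, and for AHRR, whose first start site carries the longer AHR element. Capitals mark GCGTG, the core of that element, on either strand. The windows are chr15:74725529-74725778 on the minus strand, chr16:69726561-69726810 on the minus strand and chr5:321464-321713 on the plus strand. By the GENCODE 29 gene spans, the windows of NQO1 and AHRR lie inside the gene and that of CYP1A1 lies partly inside.
CYP1A1: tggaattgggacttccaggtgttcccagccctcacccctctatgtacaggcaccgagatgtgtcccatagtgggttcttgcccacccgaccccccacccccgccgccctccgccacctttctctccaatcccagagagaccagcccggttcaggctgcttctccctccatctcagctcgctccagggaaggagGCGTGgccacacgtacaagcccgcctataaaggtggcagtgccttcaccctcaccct
NQO1: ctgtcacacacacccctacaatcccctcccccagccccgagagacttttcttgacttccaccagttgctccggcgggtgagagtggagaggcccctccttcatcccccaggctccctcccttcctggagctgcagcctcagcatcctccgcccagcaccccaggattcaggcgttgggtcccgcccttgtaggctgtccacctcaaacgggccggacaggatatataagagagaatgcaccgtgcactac
AHRR: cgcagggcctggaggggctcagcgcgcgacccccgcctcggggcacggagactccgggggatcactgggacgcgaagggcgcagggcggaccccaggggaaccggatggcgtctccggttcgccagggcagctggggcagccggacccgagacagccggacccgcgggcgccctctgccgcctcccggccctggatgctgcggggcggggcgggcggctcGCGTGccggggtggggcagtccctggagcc
CYP1A1 held 1 core, 57 bases upstream of its start, NQO1 held none, and AHRR held 1 at 30 bases as part of the longer form TNGCGTG. The core stood in 32.2% of 35116 promoter windows of this length and the longer form in 4.52%, both strands counted and the longer form including the core. TIPARP had 2 copies of the core upstream of the first of its 3 start sites, AHRR had 2 upstream of its second start site, and AHR, ARNT and CYP1A2 had none. CYP1A1 also held ACGTG, the core bound by HIF with ARNT, 48 bases upstream, as did 18.5% of windows. AHR held 2 overlapping matches to ACGTG, 1 on each strand, 164 bases upstream. TGACNNNGC, the antioxidant element bound by NRF2, was found in ARNT among the members and in 10.9% of windows, and TTCNNNGAA, the STAT element, in no member and in 6.57% of windows. Windows were available for 7 of the 8 members. These matches describe letters, and enhancers farther from the start were not scanned.

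The genes around the receptor were followed in 9 lists. Without the 8 members they hold 214 genes, of which 119 were tested, 25 higher and 32 lower, or 47.9% against 44.5% of all tested genes.

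Other reported AHR targets were not called higher. Of 28, 9 were at 0, 8 had too few reads for an adjusted p, and 11 were tested, of which none rose and 1 fell by DESeq2 per the authors' deposited table. The share higher over all tested genes was 21.3%, so none of 11 is no clear result about this list. At an unadjusted p under 0.05, 1 of them was higher, NFE2L2, and 2 were lower, POLK and IL1B. The count of called genes, 9.09%, is below the 44.5% of all tested genes, and the median log2 fold change was −0.12. The gene that fell was IL1B, the inflammatory cytokine, at 37.5% of scramble per the authors' deposited table (DESeq2 adjusted p = 2.8e-14). ALDH3A1, a detoxifying dehydrogenase of the classical AHR battery, had 4 reads, and UGT1A1, UGT1A6 and GSTA1 had none counted. Whether reads shared by overlapping genes were set aside is not known. Of the 23 reads recovered for 8 low-count genes of this list, 69.6% lay in library 1, most of them those of CYP2S1.

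**Figure D4:**
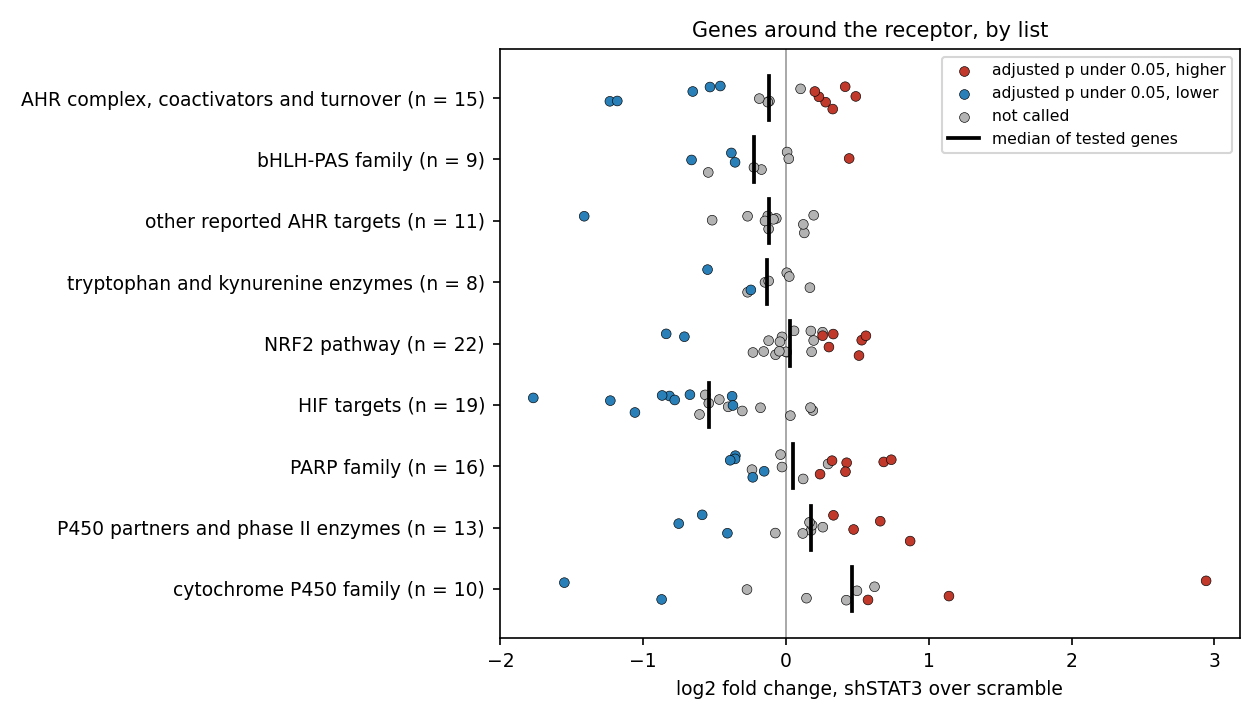
Log2 fold change of each tested gene in the 9 lists, coloured by call, with the median as a black bar. The list of other reported AHR targets holds 1 called gene of 11, while HIF targets lie mostly to the left, with a median of −0.54.

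The 2 HSP90 genes and the p23 gene, whose products hold AHR in the cytoplasm, fell, while 5 coactivator genes rose. In the list of complex, coactivator and turnover genes 6 of 15 were higher and 5 lower, 73.3% called against 44.5% of all tested genes, with a median log2 fold change of −0.12. HSP90AA1 and PTGES3, the HSP90 chaperone and its co-chaperone p23, fell to 42.5% and 44.1% of scramble per the authors' deposited table (DESeq2 adjusted p = 6.99e-34 and 4.53e-47). HSP90AB1 fell to 69.1% per the authors' deposited table. CDC37, another co-chaperone, went against the HSP90 genes, with a rise of 0.28 in log2 units per the authors' deposited table. The acetyltransferase genes EP300 and CREBBP rose by 0.49 and 0.20, and the p160 coactivator genes NCOA3, NCOA1 and NCOA2 by 0.41, 0.33 and 0.23 in log2 units per the authors' deposited table. RB1, the pocket protein that binds AHR, and CUL4B, a ubiquitin ligase scaffold that works with it, fell by 0.65 and 0.46 in log2 units per the authors' deposited table.

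Among the other bHLH-PAS genes, 9 of 16 were tested, 1 higher and 3 lower (44.4% called, against 44.5% of all tested genes). HIF1A and ARNTL2, a clock factor, fell to 78.1% and 63.2% of scramble, and the period gene PER3 to 76.7%, per the authors' deposited table. CLOCK rose by 0.44 in log2 units per the authors' deposited table. ARNT2, the second partner gene for AHR, had 2 reads, so ARNT was the partner these cells transcribed.

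HIF targets, which depend on the same partner ARNT, were lower in 9 of 19 tested cases and higher in none by DESeq2, nor at an unadjusted p under 0.05, against 23.2% lower in the background, with a median of −0.54. VEGFA, the angiogenic factor, stood at 48.0% of scramble, the mitophagy receptor gene BNIP3 at 42.6% and the prolyl hydroxylase gene P4HA2 at 29.3% per the authors' deposited table. The glucose transporter gene SLC2A1 and the glycolytic enzyme gene ALDOA stood at 62.7% and 77.3% per the authors' deposited table. A further 6 members of this list have a fold change and no p, and 2 were at 0, per the authors' deposited table. Among all genes only 74 have a fold change and no p. The SE in log2 units was 0.33 for BNIP3 and 0.26 for LDHA and PDK1, also called lower, against 0.12 for VEGFA and 0.11 for ALDOA. Replicates therefore spread widely for some of these genes. The list was written with these falls known, so its direction is not independent evidence.

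NRF2 genes, the second route to NQO1, were called in 8 of 22 tested cases, 6 higher and 2 lower, or 36.4% against 44.5% of all tested genes, with a median of 0.03. At an unadjusted p under 0.05, or an adjusted p under 0.1, 10 were higher. Thioredoxin (TXN) and the ferritin chains FTL and FTH1 rose by 0.56, 0.51 and 0.30 in log2 units, and the transporter gene ABCC1 and the sulfiredoxin gene SRXN1 by 0.26 and 0.53, per the authors' deposited table. GCLC, which makes the first step of glutathione synthesis, rose by 0.33 in log2 units per the authors' deposited table, the last of the 6. NFE2L2, the gene of NRF2 itself, was at 0.19 (DESeq2 adjusted p = 0.0978) per the authors' deposited table. NQO2, the paralog of NQO1, fell to 55.9% of scramble per the authors' deposited table (DESeq2 adjusted p = 4.08e-09), the opposite direction from NQO1. The small MAF gene MAFF fell by 0.71 in log2 units per the authors' deposited table.

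Enzymes of the tryptophan and kynurenine route, a source of natural AHR ligands, were largely below the depth for a test. Of 19, 8 were tested, 2 fell and none rose by DESeq2, nor at an unadjusted p under 0.05. Over all tested genes 21.3% were higher, so none of 8 is no result about this list. IDO1 and TDO2, which open the route, had 3 reads and 1 read. CCBL2, a kynurenine aminotransferase, and QPRT, which takes the route on to NAD, fell to 68.3% and 84.3% of scramble per the authors' deposited table.

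The cytochrome P450 family counts 56 genes in the table, few of them measurable. Of these 25 were at 0, 21 had too few reads for an adjusted p, and 10 were tested, per the authors' deposited table. Without CYP1A1, 2 of 9 rose and 2 fell, 44.4% called against 44.5% of all tested genes, with a median log2 fold change of 0.42. CYP27B1, which activates vitamin D, rose 2.21-fold and CYP20A1, an orphan P450, 1.49-fold per the authors' deposited table (DESeq2 adjusted p = 1.49e-05 and 1.62e-05). CYP51A1 of cholesterol synthesis fell to 54.7% and CYP2W1, with a mean of only 17.5, to 34.1% of scramble per the authors' deposited table.

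Of the P450 partners and phase II enzymes 4 of 13 tested genes were higher and 3 lower, 53.8% called against 44.5% of all tested genes. POR, the reductase that feeds electrons to CYP1A1, was at 0.17 in log2 units (DESeq2 adjusted p = 0.143) per the authors' deposited table. CYB5R3, the cytochrome b5 reductase gene, EPHX1, the epoxide hydrolase gene that acts on CYP1A1 products, and GSTP1, a glutathione transferase gene, rose by 0.47, 0.66 and 0.33 in log2 units per the authors' deposited table. SULT1A1, a sulfotransferase gene, rose by 0.87 from a low mean of 19.3 per the authors' deposited table. GSTO1, GSTM4 and the acetyltransferase gene NAT1 stood at 75.2%, 59.4% and 66.6% of scramble per the authors' deposited table, all called lower.

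Of the PARP relatives of TIPARP 6 of 16 were higher and 5 lower, 68.8% called against 44.5% of all tested genes. The mono-ADP-ribosyltransferase genes PARP10, PARP15 and PARP14 rose by 0.68, 0.74 and 0.42 in log2 units, and ZC3HAV1 and PARP6 by 0.42 and 0.32, per the authors' deposited table. TNKS, PARP16 and PARP2 fell to 78.1%, 76.3% and 78.2% of scramble, and PARP9 and PARP1 to 85.1% and 89.9%, per the authors' deposited table.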

How the data were processed

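RNA of 3 scramble and 3 shSTAT3 cultures of REH was sequenced after TruSeq RNA v2 preparation, per the labels' protocols. Tools named, per the submitters' processing notes, are DESeq2, featureCounts, Picard, Bowtie2, Trimmomatic and bcl2fastq 2.19, with hg38 as the build. For settings, annotation and model formula, the answer is not given in the sources used here. Per the file headers, each gene of the deposited table has a mean normalized signal, a log2 fold change and a p-value with its adjusted form, all from the authors. Since it has no value per library, calls use the authors' DESeq2 adjusted p.

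Standard errors follow from dividing a fold change by the z value of its p, and fold changes in this table are shrunken toward 0. Group levels are implied by mean and fold change, so this shrinkage brings the 2 levels of a gene closer together. Reads were assigned to unlabelled libraries within 4e-09, uniquely for 3974 of 3979 genes with a mean under 2. AHR, CYP26C1 and GSTA2, with 1 read in library 1, 3 and 4 in turn, had log2 fold changes of −0.055, −0.057 and −0.057. TDO2, with 1 read in library 6, was at 0.059, and CYP2C8, with reads in libraries 5 and 6 only, at 0.097. By these signs libraries 1, 3 and 4 are scramble, and 5 and 6 are shSTAT3. At 3 libraries per group, library 2 is the remaining shSTAT3 library. Size factors spanned 0.935 to 1.13, around a total of 11485068 normalized counts per library. Positions and exon lengths came from GENCODE 29 on GRCh38, where 23701 names matched 1 gene, and promoters from RefSeq. Software was Python 3.11.15 (scipy 1.17.1, pandas 2.3.3, numpy 2.4.6, matplotlib 3.10.9). The recovery of reads, the adjustment of p and the standard errors were tested on simulated data, and the other steps were not.

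The members, the 9 lists and the rule for named genes were chosen with earlier results of these data known. Named were all members, up to 5 called genes per direction and list with the smallest adjusted p, called P450 genes, and genes next to members; other genes named were chosen after their values were seen. Alternatives were other thresholds, a 1.5-fold minimum, adjustment over all genes with a p, a mean of at least 50, and centred fold changes.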

Additional observations from a re-analysis of the deposited data

How the results depend on the processing

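No paired analysis was possible because the deposited table holds no value per library, and for the same reason no replicate could be left out. With CYP1A1 left out, NQO1 was the 1 member called higher under all 5 other call rules. Members called lower were 1 (ARNT) at an adjusted p under 0.05, 2 under 0.1, where TIPARP joined (background 26.1%), and 0 with at least 1.5-fold (10.4%). Of the list genes 25 were higher and 32 lower, and with at least 1.5-fold 5 and 18 (6.96% and 10.4%). The other 16 of these 20 counts stayed within 1.5 times, as did 75 of 90 counts for single lists. Centring on all tested genes, or on those nearest by mean, moved the 5 tested members' fold changes by no more than 0.023 in log2 units and turned none. Depth limits AHR, CYP1B1 and CYP1A2, for which no change can be read.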

Other observations

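The chromosomal surroundings of CYP1A1 were not part of any list, and the window was chosen after the data were seen. Within 200 kb on either side on chromosome 15, the authors' deposited table holds 14 other genes, of which 9 were tested, 6 higher and 2 lower, against 21.3% and 23.2% of all tested genes. Their median log2 fold change was 0.28. ARID3B, a DNA-binding protein gene at the left of the window, rose by 1.21 in log2 units per the authors' deposited table (DESeq2 adjusted p = 1.78e-09). EDC3, an mRNA decapping gene next to CYP1A1, and the kinase gene ULK3 rose by 0.36 and 0.39, and MPI, the mannose phosphate isomerase gene, fell by 0.56 in log2 units per the authors' deposited table. CSK, a kinase gene on the far side of CYP1A2, was at 0.18 (DESeq2 adjusted p = 0.0665) per the authors' deposited table. The range over the 9 was −0.56 to 1.21.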
